A study of Homo sapiens with 204 samples.

Results

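Described here are 5 of 102 cell lysates with parallel RNA-seq and Ribo-seq. They came from A549 cells in which a dispensable protein of the large (60S) ribosomal subunit had been depleted: RPL22, RPL28, RPL38, RPL39 or RPL41. They were chosen by their targets, with earlier results of these data known, as 60S proteins that budding yeast lacks (RPL28) or can live without (the others). Not every knockdown of such a protein is among the 5. A549 cells derive from a lung adenocarcinoma. Each target was depleted once, with 40 nM siRNA for 24 h, and the cells received cycloheximide (100 µg/ml, 5 min) before lysis. Each lysate was divided, one portion giving total-RNA sequencing and the other ribosome-protected fragments (footprints). The 5 knockdowns were compared with 5 lysates given negative-control siRNA (NC1, NC3, NC5, NC7 and NC9) under the same siRNA dose and time, and with 35 other 60S knockdowns of 1 library each. Some of those 35 also target proteins whose yeast counterparts can be deleted, such as RPL12 and RPL26. The 19 40S knockdowns of the same title series serve as a reference for levels only. As RPL39 lines the peptide exit tunnel and RPL41 lies at the subunit interface, the 5 proteins do not share a position at the ribosome's edge.

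When assembly of the 60S subunit fails, unassembled RPL5 and RPL11 with the 5S rRNA bind MDM2, the ligase that destroys p53, and p53 then switches on arrest genes such as CDKN1A and its own inhibitor MDM2. Messenger RNAs of ribosomal proteins and elongation factors begin with a C followed by a run of pyrimidines, the 5′ terminal oligopyrimidine (TOP) motif, through which LARP1 and mTORC1 set their translation. RPL22 and RPL39 each have a close vertebrate paralog, RPL22L1 and RPL39L, and RPL22 is known to restrain RPL22L1 expression by binding its transcript. RPL38 is known from the mouse mutant Tail short, where skeletal patterning and the translation of Hox transcripts are altered.

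The starts of the 5 target mRNAs and of 5 further mRNAs followed below show why the targets are themselves part of the TOP class. Each window covers 10 bases before and 20 bases from the annotated start, 5′ to 3′ on the gene's strand, from RefSeq on GRCh38.p14. Capitals mark an uninterrupted C-led pyrimidine tract of at least 5 bases at the start.
RPL22: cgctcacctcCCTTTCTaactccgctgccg
RPL28: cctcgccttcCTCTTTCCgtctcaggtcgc
RPL38: aagtctcgttCTTTTTCgtccttttccccg
RPL39: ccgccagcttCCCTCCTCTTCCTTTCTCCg
RPL41: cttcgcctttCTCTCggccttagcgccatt
RPL22L1: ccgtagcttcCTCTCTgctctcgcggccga
EEF1A1: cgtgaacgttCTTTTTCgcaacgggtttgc
EEF2: cgtcagcgttCTCTTCCgccgtcgtcgccg
TPT1: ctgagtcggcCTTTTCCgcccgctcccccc
RPS6: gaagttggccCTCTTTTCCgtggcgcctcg
These lie at chr1:6199576-6199605 (minus strand, RPL22), chr19:55385922-55385951 (plus, RPL28), chr17:74203668-74203697 (plus, RPL38), chrX:119791611-119791640 (minus, RPL39) and chr12:56116623-56116652 (plus, RPL41). The others lie at chr3:170870176-170870205 (minus, RPL22L1), chr6:73521013-73521042 (minus, EEF1A1), chr19:3985444-3985473 (minus, EEF2), chr13:45341164-45341193 (minus, TPT1) and chr9:19380217-19380246 (minus, RPS6). Shares were counted apart from these windows, over genes with an entry in a set of promoter sequences, which only some genes of each list had. Such a tract opened 4.04% of those 27305 starts, against 68.1% of the 72 found for the 94 ribosomal protein and other TOP mRNAs. For the 35 p53 targets it opened 7.41% of the 27 found. A match describes these letters and is no measure of translation.

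The RNA-seq libraries of the 10 lysates held 19.1 to 23.3 M counts (M for 1e6) on exons and the Ribo-seq libraries 16.4 to 42.6 M on coding sequences. Levels are given as counts per 1e6 counts of the library (CPM), and 3 counts, the limit that a count of 0 allows, equal at most 0.157 CPM in the first and 0.183 CPM in the second. CPM values below were scaled by the trimmed mean of M-values (TMM) over 64 libraries. Lung epithelial and A549 marker mRNAs summed to 10126 to 17136 CPM in the knockdowns and 11202 to 13616 in the controls. Fibroblast markers summed to at most 29.3 CPM and endothelial markers to at most 0.372 CPM in any of the 10. Control NC3 stood apart in RNA-seq, with 155 of 10107 genes (1.53%) at least 2-fold below the other 4 controls, against at most 1 gene in each of those. The 5 knockdowns and 5 controls belong to 1 run of columns in the tables, as do 29 of the 35 other 60S libraries, and 6 lie in another run.

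Every target was depleted in its own lysate. RPL22 (ENSG00000116251, chr1:6185020-6199595), an RNA-binding protein of the 60S surface, stood at 14.6 CPM in its knockdown's mRNA and at 108, 103, 117, 97.3 and 114 CPM in NC1, NC3, NC5, NC7 and NC9. RPL28 (ENSG00000108107, chr19:55385932-55403342) stood at 53.4 CPM in its knockdown against 1151, 1732, 1089, 1197 and 1152 CPM in the controls. RPL38 (ENSG00000172809, chr17:74203678-74210655) stood at 10.2 CPM against 298, 344, 281, 289 and 300.0 CPM. These 3 knockdowns thus held 13.6%, 4.23% and 3.38% of the control mean, far below every control. RPL39 (ENSG00000198918, chrX:119786504-119791630) stood at 5.07 CPM in its knockdown against 31.1, 28.1, 37.4, 44.7 and 37.97 CPM. RPL41 (ENSG00000229117, chr12:56116633-56117967), which encodes one of the shortest human proteins, stood at 4.81 CPM against 54.9, 52.1, 60.5, 60.4 and 55.2 CPM. The mRNA left was thus 14.1% for RPL39 and 8.49% for RPL41.

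Footprints on the targets were depleted too. RPL22 footprints stood at 1.68 CPM in its knockdown against 92.9 to 148 CPM in the controls, or 1.42% of the control mean. RPL28 footprints held 3.75% (39.3 against 984 to 1088 CPM) and RPL38 footprints 4.13% (39.5 against 721 to 1053 CPM). RPL41 footprints, few on its short coding sequence, stood at 4.42 CPM against 19.7 to 35.8 CPM. RPL39 had 0 footprint counts in its own knockdown and 15 to 47 counts in each control, so its level there is known only to lie under the limit of 3 counts. RPL39 footprints stood at 6.16 CPM in the RPL22 knockdown, above all controls (0.508 to 2.06 CPM). No target's mRNA was under 30% of the control mean in any of the other 4 knockdowns, although RPL28 footprints were below all controls in the RPL38, RPL39 and RPL41 knockdowns as well (625, 671 and 844 CPM).

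**Figure D1:**
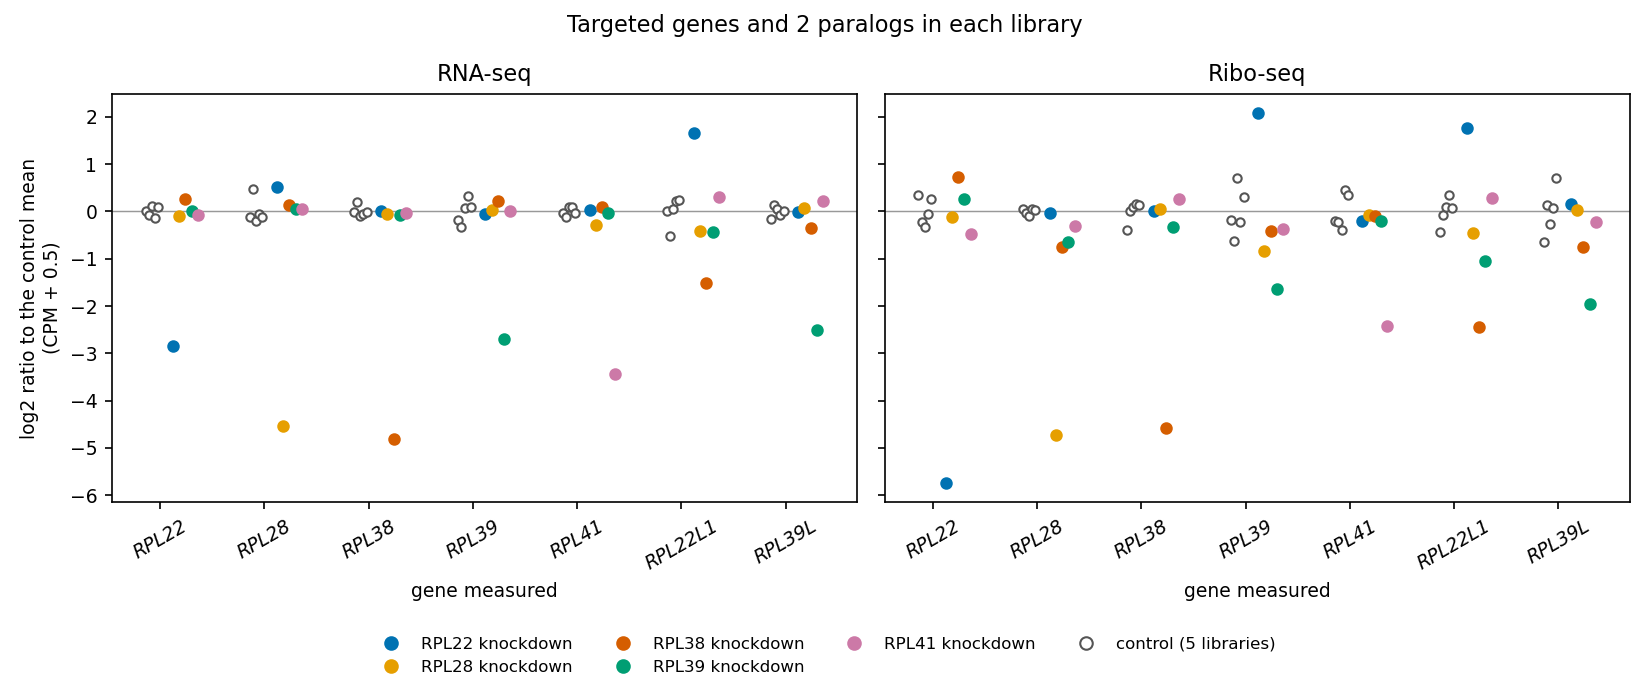
Log2 ratio to the mean of the 5 controls (0.5 CPM added) for the 5 target mRNAs and the paralogs RPL22L1 and RPL39L, in RNA-seq and Ribo-seq; each point is 1 library, with knockdowns as filled and controls as open circles. Each target lies below the controls in its own knockdown, least so for RPL39 footprints, whose levels are near the 0.5 CPM added, and RPL22L1 lies above them in the RPL22 knockdown (1.66 in RNA-seq, 1.77 in Ribo-seq).

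RPL22L1 (ENSG00000163584, chr3:170864875-170870195), the paralog of RPL22, went with its partner's depletion. Its mRNA stood at 153 CPM in the RPL22 knockdown, 35.97 in RPL28, 16.4 in RPL38, 35.2 in RPL39 and 59.9 in RPL41, against 48.2, 33.2, 50.1, 55.7 and 57.02 CPM in the controls. Its footprints stood at 1661, 351, 88.4, 234 and 591 CPM in the same order, against 361, 459, 516, 622 and 507 CPM in the controls. The RPL22 knockdown was thus at 312% of the control mean in mRNA and 337% in footprints, beyond all controls, while the RPL38 knockdown was below all controls in both. In the 35 other 60S knockdowns RPL22L1 mRNA had a median of 17.7 CPM (9.94 to 53.3), and 29 of the 35 were below every control. Levels with both directions in 1 group gave no group difference from control in edgeR's quasi-likelihood test (log2 difference 0.30 ± 0.42 SE, adjusted p = 0.793 in RNA-seq).

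RPL22 was depleted in 1 further lysate, the one labelled RPL23. There RPL23 mRNA stood at 40.2 CPM against 776 to 937 CPM in the controls, as its label says. RPL22 mRNA stood at 13.9 CPM in the same library and its footprints at 6.51 CPM, about as low as in the RPL22 knockdown, while the other 34 60S knockdowns held 101 to 153 CPM of RPL22 mRNA. That library also had the highest RPL22L1 mRNA (53.3 CPM) and footprints (449 CPM) of the 35 other 60S knockdowns, within the control range of both. The comparison was chosen after these values were seen. The reason why RPL22 is low there was not tested, and results that set the 5 against the 35 are also given without it.

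Some mRNAs singled out in the RPL22 knockdown stood out in the RPL23 lysate as well. HNRNPH3, a splicing regulator of the hnRNP H family, stood at 181 CPM of mRNA in the RPL22 knockdown, 229 in the RPL23 knockdown, at most 149 in the other 34 and 99.6 to 114 in the controls. MT-ND6, the complex I subunit encoded on the other mitochondrial strand from its neighbours, stood at 968 CPM of mRNA in the RPL22 knockdown, 1141 in the RPL23 knockdown, at most 696 in the other 34 and 418 to 512 in the controls. Among the 5, the 35 and the controls, both mRNAs were highest in these 2 lysates. Footprints did not follow in the RPL22 knockdown, where HNRNPH3 stood at 294 CPM within the controls (238 to 362 CPM) and MT-ND6 at 30.6 CPM just below them (31.7 to 62.9 CPM). In the RPL23 lysate HNRNPH3 footprints stood at 422 CPM, above the controls, and those of MT-ND6 at 42.5 CPM, within them. By contrast SPNS1 (13.7 CPM in the RPL22 knockdown, 49.4 in the RPL23 knockdown, 52.99 to 72.4 in controls) and DDAH1 (6.24, 32.5 and 23.1 to 31.8 CPM) were below all controls in the RPL22 knockdown but not equally so in the RPL23 lysate, where SPNS1 lay just under the lowest control and DDAH1 above the highest. RPL10 mRNA was below all controls in both (634 and 695 CPM against 848 to 1056 CPM). Whether the counting used strand is not given in the sources used here, so reads of MT-ND6 and of RNA from the opposite strand cannot be told apart.

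RPL39L (ENSG00000163923, chr3:187120948-187139496), the autosomal copy of RPL39, was low with its partner. Its mRNA stood at 2.75 CPM in the RPL39 knockdown and 14.1 to 20.99 CPM in the other 4, against 16.1, 19.9, 18.7, 17.02 and 18.2 CPM in the controls. Its footprints stood at 3.88 CPM in the RPL39 knockdown against 10.4 to 27.1 CPM in the controls. The RPL39 knockdown lay below every control in both. RPL39 and RPL39L are near-identical, so how reads were shared between them is uncertain.

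The extent of change in a library was measured as the standard deviation, over genes with a mean of at least 10 CPM, of its log2 ratios to the control mean (0.5 CPM added). In RNA-seq it was 0.339 for RPL22, 0.342 for RPL28, 0.469 for RPL38, 0.304 for RPL39 and 0.276 for RPL41. The controls, whose own values enter that mean, ranged from 0.139 to 0.274, the highest being NC3. The 35 other 60S knockdowns had a mean of 0.463 ± 0.0939 (SD, n = 35), against 0.346 ± 0.0739 (n = 5). The 35 ranged from 0.300 to 0.625, and RPL22, RPL28, RPL38 and RPL39 all lay within that range. Of the 35, 18 lay above RPL38, while 30 to 35 lay above each of the other 4. RPL41, with the smallest response, was below all 35.

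The difference of -0.117 between the 5 and the 35 in RNA-seq had p = 0.00954 in a two-sided exact permutation test over all 658008 regroupings (0.0143 after Benjamini-Hochberg adjustment over 3 readouts). The 5 are different targets with 1 library each, grouped with earlier results of these data known. The p-values in this paragraph thus describe these libraries only and are not those of a grouping fixed beforehand. In Ribo-seq the 5 had 0.383, 0.416, 0.536, 0.438 and 0.353 in the same order, with a mean of 0.425 ± 0.0697 against 0.550 ± 0.0994. That difference of -0.125 had an exact permutation p = 0.00873 (adjusted 0.0143). For the footprint-to-mRNA ratio the difference was -0.0336 with an exact permutation p = 0.253. Over genes with a mean of at least 50 CPM it was -0.0447 with an exact permutation p = 0.0417, so this call depends on the genes used. With only the 29 other 60S libraries of the same run of columns the differences were -0.111 and -0.128 (exact permutation p = 0.0206 and 0.0107). Without the RPL23 lysate they were -0.114 and -0.123 (exact permutation p = 0.0117 and 0.0105).

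**Figure D2:**
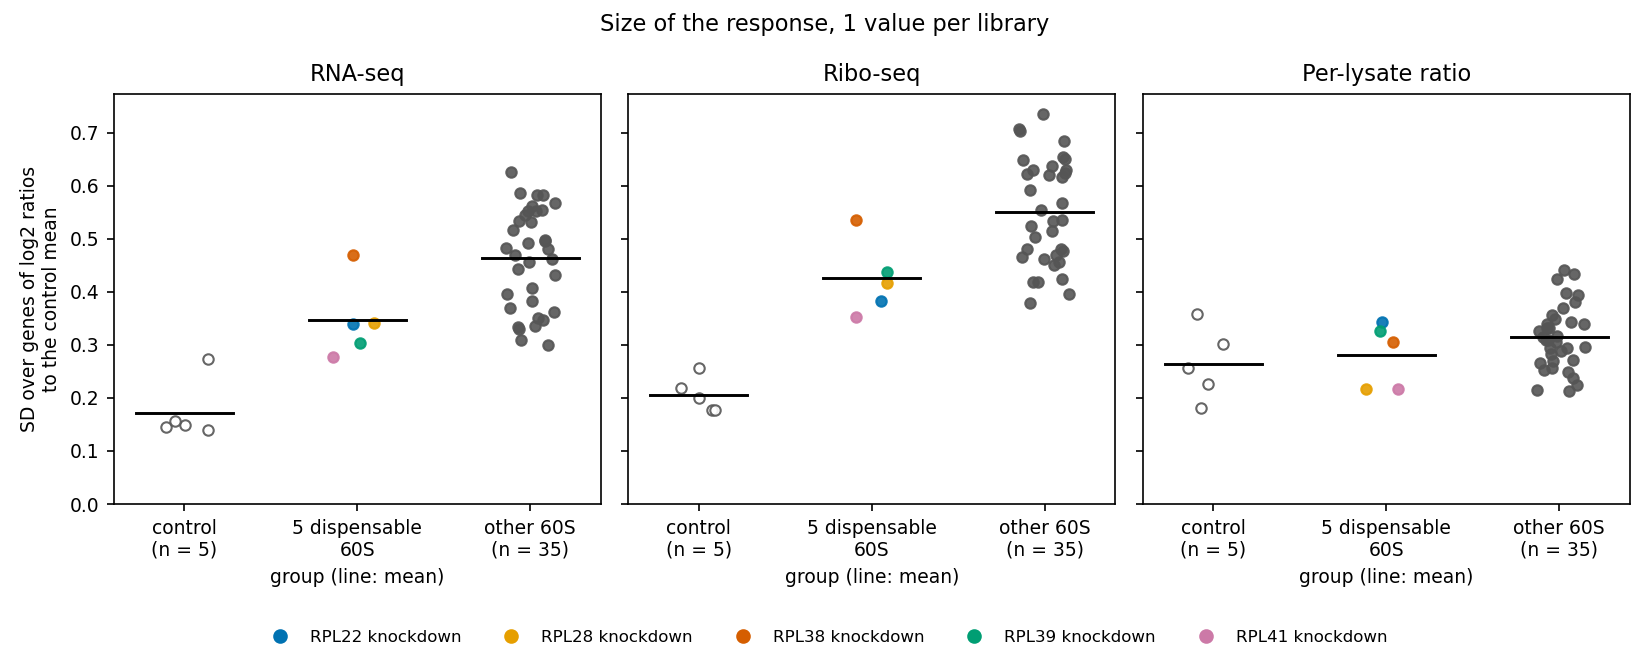
Standard deviation of log2 ratios to the control mean per library, for the controls, the 5 dispensable 60S knockdowns and the 35 other 60S knockdowns, in RNA-seq, Ribo-seq and their ratio; lines mark group means. In RNA-seq the 5 have a mean of 0.346 and the 35 a mean of 0.463, and RPL38 is the highest of the 5.

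The p53 response set the 5 knockdowns apart from each other. CDKN1A, which encodes the cell-cycle inhibitor p21, stood at 112 CPM of mRNA in the RPL22 knockdown, 221 in RPL28, 623 in RPL38, 396 in RPL39 and 136 in RPL41, against 140.0, 172, 125, 172 and 115 CPM in the controls. MDM2 stood at 241, 281, 1034, 769.6 and 269 CPM in the same order, against 262, 168, 266, 268 and 239.8 CPM. RPL38 and RPL39 were well above every control for both genes, RPL28 slightly so, and RPL22 and RPL41 were near the controls. In the 35 other 60S knockdowns the medians were 648 CPM for CDKN1A and 1035 CPM for MDM2, so RPL38 was at the level usual for that set and RPL22 and RPL41 were not.

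Other p53 targets, picked as familiar ones after their values were seen, were also highest in RPL38 and RPL39. FDXR, a mitochondrial reductase, stood at 31.7, 55.9, 213, 108 and 38.7 CPM against 29.5 to 37.99 CPM in the controls. BAX, a pro-apoptotic BCL2 family member, stood at 152, 131, 274, 246 and 145 CPM against 136 to 162 CPM. RPL38 and RPL39 lay above the controls for both genes. Over the 33 p53 targets tested in RNA-seq, the median log2 ratio to control was 0.05 in RPL22, 0.25 in RPL28, 1.55 in RPL38, 0.91 in RPL39 and 0.16 in RPL41, with controls from -0.10 to 0.07. At least 2-fold higher were 23 of the 33 in RPL38 (1.95% of the 14743 genes tested), 14 in RPL39 (0.644%), 2 in RPL28 (0.577%) and 0 in RPL22 (0.421%) and RPL41 (0.38%). Footprint medians over 34 targets were -0.03, 0.36, 1.34, 0.91 and 0.09. Each knockdown is 1 library, so these values have no replicate check. The median in RPL38 was exceeded by 7 of the 35 other 60S knockdowns, that in RPL39 by 27, and those in RPL28, RPL41 and RPL22 by 32, 33 and 35.

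Cell-cycle genes were lowest in RPL38; the 4 named here were picked after their values were seen. E2F1, the transcription factor of the G1/S switch, stood at 64.8 CPM in RPL22, 62.8 in RPL28, 14.8 in RPL38, 36.8 in RPL39 and 54.8 in RPL41, against 45.4, 67.2, 53.1, 55.5 and 56.9 CPM in the controls. MCM7, a subunit of the replicative helicase, stood at 253, 187, 104, 166 and 203 CPM against 268, 307, 224, 231 and 239 CPM. PLK1, a mitotic kinase, stood at 176, 174, 74.7, 159 and 174 CPM against 216, 266, 192, 199 and 191 CPM. RPL38 was lowest of the 10 libraries for all 3 genes. MCM4, another helicase subunit, was also lowest there (73.9 CPM against 171 to 238 CPM).

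Median log2 ratios over 48 DNA replication and G1/S mRNAs were 0.07, 0.00, -1.22, -0.50 and -0.16 in the same order, with controls from -0.11 to 0.10. In RPL38 29 of the 48 were at least 2-fold lower (3.02% of the 14743 genes tested), in RPL28 2 (1.19%), in RPL39 1 (0.57%), in RPL41 1 (0.441%) and in RPL22 0 (0.766%). Over 43 mitosis and G2/M mRNAs the medians were 0.15, -0.07, -0.82, -0.32 and -0.21. Over 44 replication-dependent histone mRNAs they were -0.20, -0.35, -1.44, -0.71 and -0.26, with 39 of the 44 at least 2-fold lower in RPL38. In these bulk lysates fewer cells in a phase and less of an mRNA per cell cannot be told apart. In the 35 other 60S knockdowns the replication median had a middle value of -1.27, and 17 of the 35 had a higher median than RPL38.

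**Figure D3:**
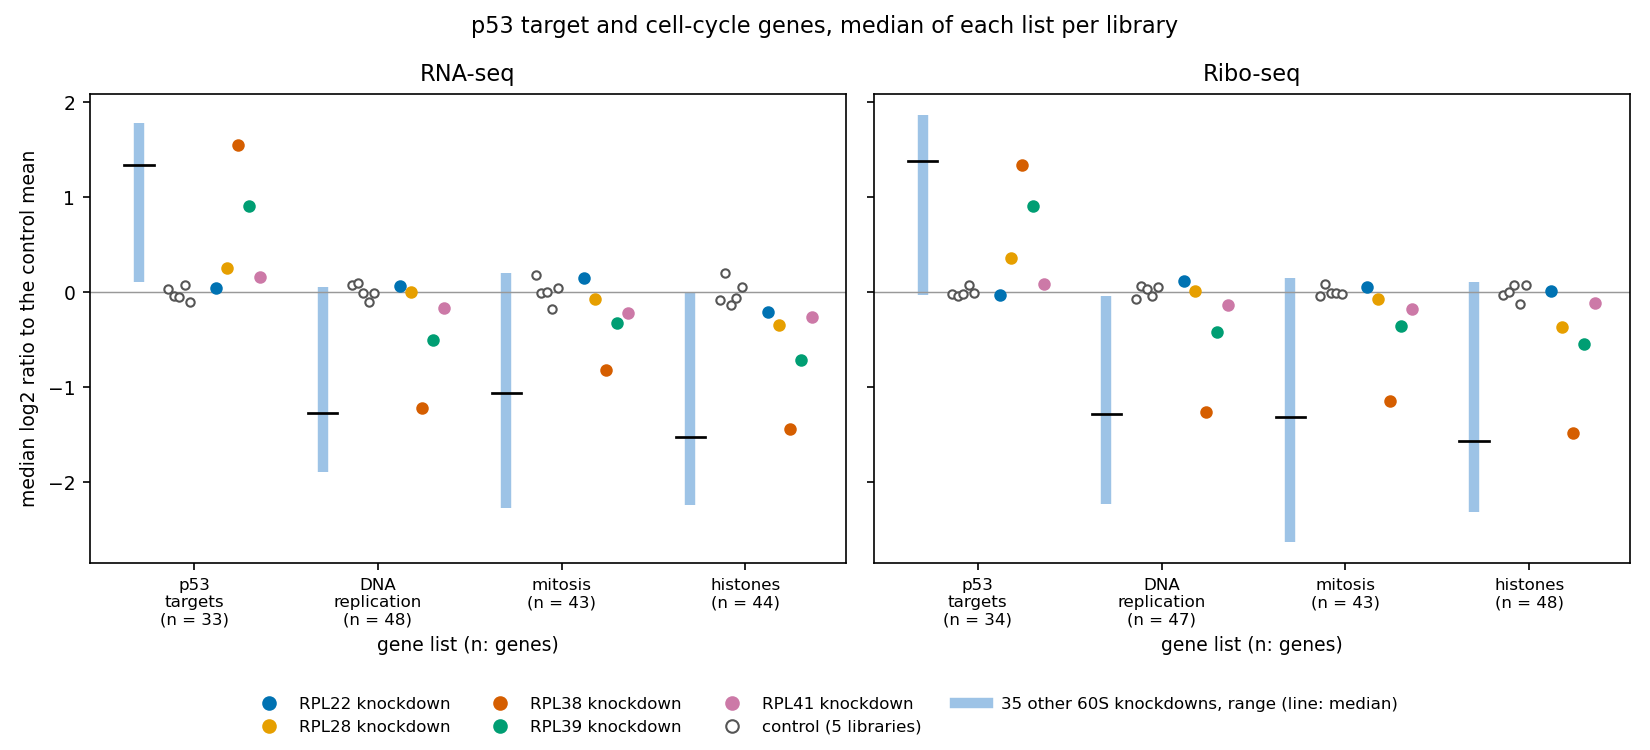
Median log2 ratio to the control mean of p53 targets, DNA replication and G1/S genes, mitosis and G2/M genes and replication-dependent histones in each of the 10 libraries, for RNA-seq and Ribo-seq; bars give the range and median of the 35 other 60S knockdowns. RPL38 and then RPL39 have the highest p53 medians (1.55 and 0.91 in RNA-seq) and the lowest cell-cycle medians, while RPL22, RPL28 and RPL41 lie closer to the controls.

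As a group against control, few genes of these lists passed the test. Adjusted p-values here are Benjamini-Hochberg values over all genes tested, from edgeR's quasi-likelihood test for RNA-seq and Ribo-seq, with 0.05 as the threshold. They treat 5 different targets with 1 library each as replicates of one condition, and the labels do not say that the controls were separate cultures, so they measure only the spread between these lysates. Of 33 p53 targets, 2 rose in RNA-seq (1.43% of all genes tested rose) and 0 fell, with a median log2 difference of 0.66 against -0.01 over all genes. BTG2, an antiproliferative protein, stood at 17.1, 26.5, 98.4, 61.2 and 22.9 CPM against 11.6, 15.9, 10.2, 14.9 and 8.46 CPM, without overlap, and rose by 1.90 ± 0.40 (SE, log2, adjusted p = 0.0282). XPC, a DNA damage sensor, stood at 44.8, 39.004, 83.3, 57.1 and 32.02 CPM against 31.4, 30.2, 22.98, 23.9 and 23.6 CPM, again without overlap, and rose by 0.96 ± 0.21 (adjusted p = 0.0363). Both genes were highest in RPL38 and RPL39. Each lost its RNA-seq call in 7 of 14 alternatives, among them the omission of RPL39 or of any 1 control (adjusted p up to 0.155 for BTG2 and 0.0984 for XPC in edgeR). CDKN1A (1.04 ± 0.37, adjusted p = 0.176) and MDM2 (1.11 ± 0.35, adjusted p = 0.136) did not pass. In Ribo-seq 4 of 34 p53 targets rose (1.3% of all genes tested rose) and 0 fell: BTG2, XPC, FBXO22, an F-box protein (1.06 ± 0.22, adjusted p = 0.0214), and DDB2, a UV damage sensor (0.88 ± 0.20, adjusted p = 0.0344). FBXO22 and DDB2 lost their calls in 5 and 8 of 14 alternatives.

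Of the 48 replication and 43 mitosis genes 0 passed in RNA-seq in edgeR, with median log2 differences of -0.27 and -0.22. Of the 44 histone genes 1 fell, and over all genes tested 0.183% fell. This was the linker histone H1-2, at 211, 176, 129, 172 and 213 CPM against 307, 303, 247, 254 and 248 CPM, without overlap (-0.59 ± 0.14, edgeR adjusted p = 0.0440). That call was lost in 8 of 14 alternatives, among them the omission of RPL28, RPL39 or any 1 control (edgeR adjusted p up to 0.489). The median of the histone list was -0.53, and all 44 had a negative difference. MYC stood at 127, 124, 85.2, 122 and 146 CPM against 129 to 168 CPM and did not pass (-0.29 ± 0.14, adjusted p = 0.337). MDM4, an inhibitor of p53, and SMAD2, a TGF-beta signal transducer, did not pass either (-0.13 ± 0.13 and 0.18 ± 0.11, adjusted p = 0.695 and 0.466).

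What set all 5 knockdowns apart from control lay largely outside those lists. Rises and falls are relative to lysates given negative-control siRNA, and an effect of that siRNA itself was not tested. In RNA-seq 211 genes rose (1.43% of 14743) and 27 fell (0.183%). In Ribo-seq 156 rose (1.3% of 12004) and 14 fell (0.117%). All 5 knockdowns lay beyond all 5 controls for 194 of the 211 and 27 of the 27 in RNA-seq and for 137 of the 156 and 13 of the 14 in Ribo-seq. Over all genes tested such separation was seen upwards in 2.92% and downwards in 2.1% in RNA-seq, and in 2.53% and 1.56% in Ribo-seq. The called genes were picked by a test on these same libraries, so their separation is no further evidence for the calls. Among the calls 44 rose at least 2-fold in RNA-seq and 73 in Ribo-seq, against 0 and 3 that fell as much.

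TPM4, a tropomyosin of actin filaments, rose most in RNA-seq. Its mRNA stood at 1069 CPM in RPL22, 880.3 in RPL28, 790.3 in RPL38, 691 in RPL39 and 864 in RPL41, against 190.4, 170.2, 163, 159.7 and 154 CPM in the controls. Its footprints stood at 183, 187, 149, 138 and 178 CPM against 41.9, 33.5, 26.6, 27.3 and 30.1 CPM. The groups did not overlap, and the log2 difference was 2.36 ± 0.12 in RNA-seq (adjusted p = 1.18e-07) and 2.40 ± 0.15 in Ribo-seq (adjusted p = 2.58e-07). TPM4 mRNA was above every control in 35 of the 35 other 60S knockdowns too (429.7 to 1096 CPM), and at 294 to 908 CPM in the 19 40S knockdowns.

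B4GALT1, a Golgi galactosyltransferase, stood at 409, 470.4, 437, 426 and 471 CPM against 139, 149.8, 148, 159.6 and 138 CPM. It rose by 1.60 ± 0.09 (adjusted p = 3.26e-07), with no overlap. ZNF664, a zinc finger protein, stood at 289, 183, 277, 264 and 255 CPM against 90.6, 76.2, 89.5, 98.3 and 82.1 CPM and rose by 1.54 ± 0.13 (adjusted p = 1.88e-05). MESD, a chaperone of LDL-receptor family proteins, stood at 116, 99.01, 93.6, 100.2 and 68.8 CPM against 35.4, 32.5, 32.9, 37.2 and 37.2 CPM and rose by 1.45 ± 0.13 (adjusted p = 2.64e-05). All 3 were also above every control in 34 of the 35 other 60S knockdowns. STX12, an endosomal syntaxin (17.1 to 27.3 against 5.66 to 8.84 CPM), RGS19, a regulator of G-protein signalling (10.9 to 16.1 against 3.34 to 5.60 CPM), and OGFR, the opioid growth factor receptor (20.6 to 32.3 against 7.70 to 13.2 CPM), rose by 1.52 ± 0.16, 1.52 ± 0.16 and 1.50 ± 0.18. ACTA2, smooth muscle actin, rose by 1.75 ± 0.41 (adjusted p = 0.0444), with 49.4 CPM in RPL38 and 8.71 to 21.996 CPM in the other 4 against 4.34 to 7.82 CPM, and lost its call in 7 of 14 alternatives.

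Fewer mRNAs fell. AGO2, the argonaute that cuts siRNA targets, stood at 183, 131, 152, 117 and 212 CPM against 308, 285, 286, 304 and 290.4 CPM, without overlap. It fell by 0.89 ± 0.14 on the log2 scale (adjusted p = 0.00476). SH2B3, an adaptor of cytokine receptor signalling, stood at 43.4, 43.6, 33.1, 49.6 and 48.8 CPM against 83.3, 88.1, 74.2, 85.9 and 61.8 CPM and fell by 0.84 ± 0.13 (adjusted p = 0.00372). SERTAD2, a transcriptional coregulator, stood at 52.1, 36.9, 27.8, 55.7 and 22.5 CPM against 68.4 to 80.5 CPM and fell by 0.93 ± 0.20 (adjusted p = 0.0337). GPAT3, an acyltransferase of triglyceride synthesis, stood at 35.3 to 65.99 CPM against 71.01 to 78.9 CPM and fell by 0.61 ± 0.14 (adjusted p = 0.0464). PPIF, the mitochondrial cyclophilin, fell by 0.66 ± 0.16 (69.1 to 133 against 157 to 201 CPM). The calls of SERTAD2, GPAT3 and PPIF were lost in 7, 10 and 9 of 14 alternatives, and that of AGO2 in 1. Of the 35 other 60S knockdowns, 32 were below every control for AGO2, 35 for SH2B3, 35 for GPAT3 and 20 for SERTAD2.

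**Figure D4:**
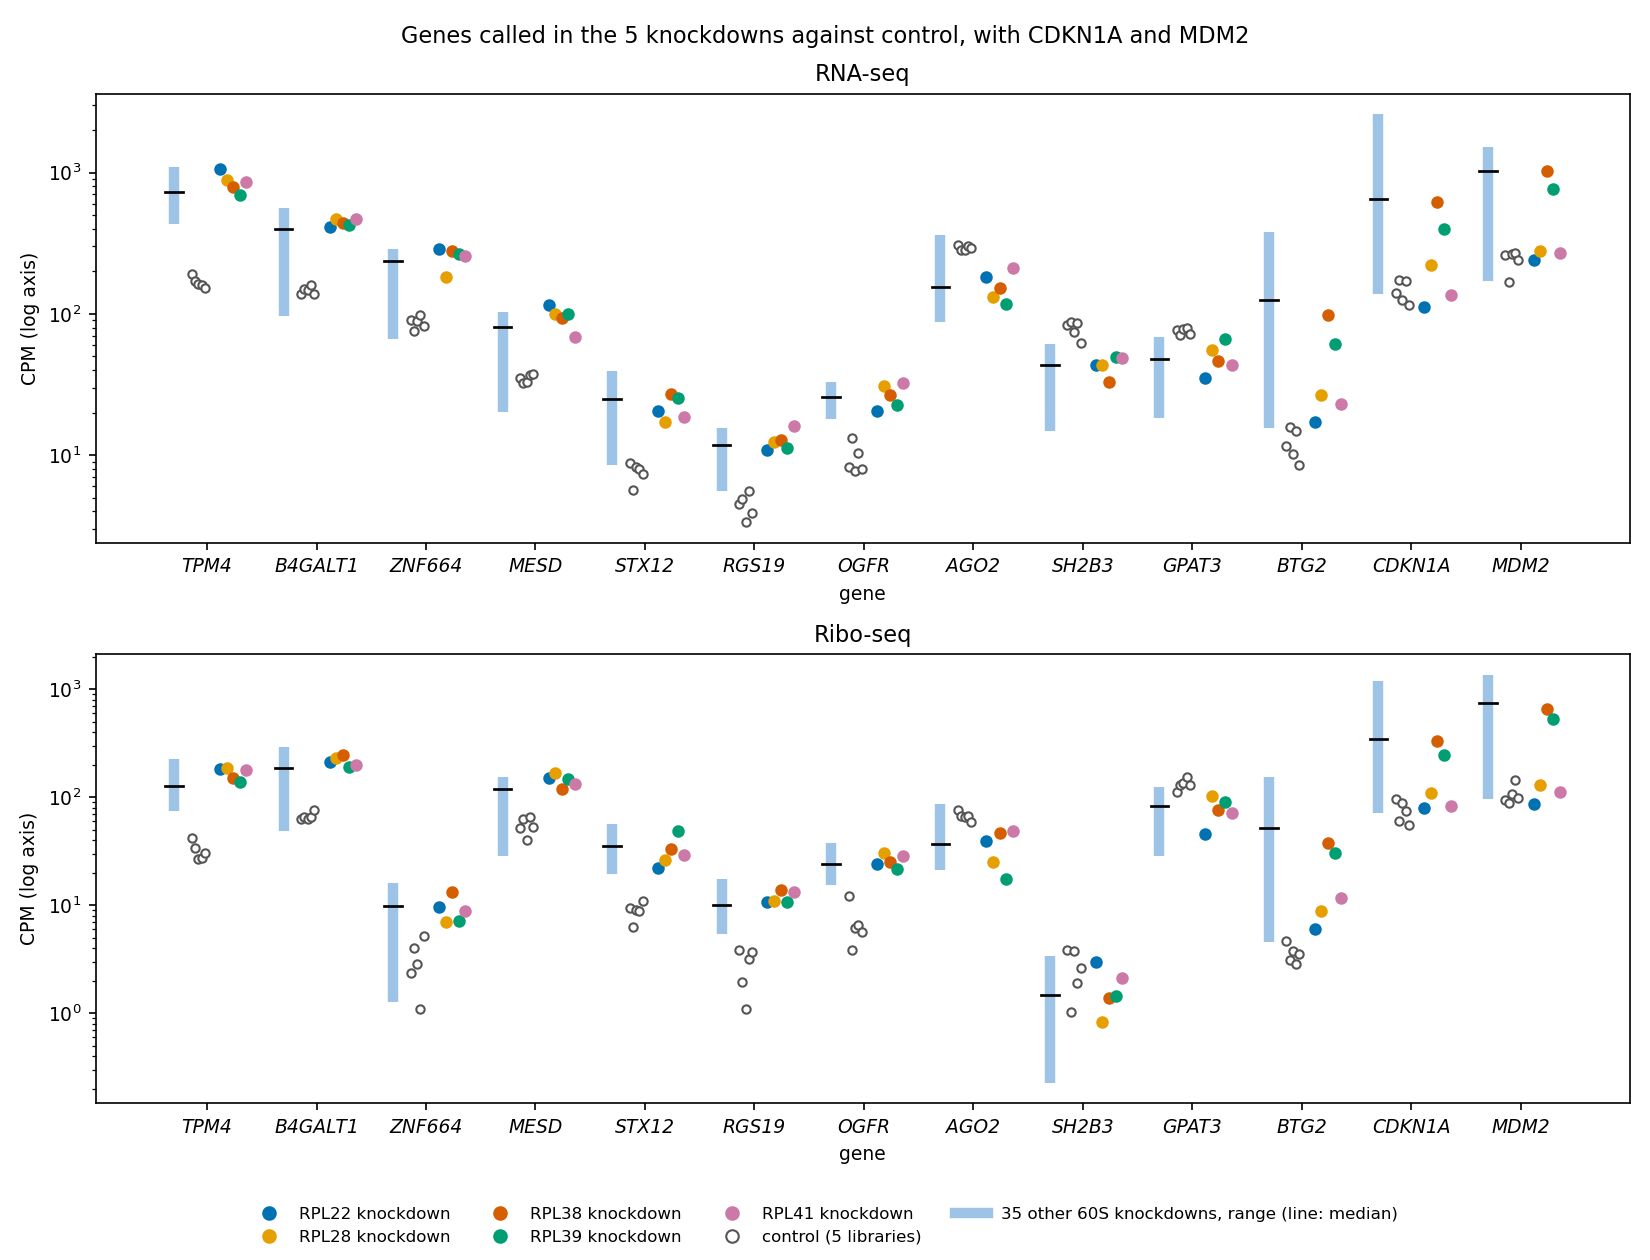
CPM on a log axis in RNA-seq and Ribo-seq for 11 genes called in RNA-seq between the 5 knockdowns and the controls, and for CDKN1A and MDM2; filled circles are knockdown and open circles control libraries, and bars give the range and median of the 35 other 60S knockdowns. In RNA-seq TPM4 lies between 691 and 1069 CPM in the 5 and between 154 and 190.4 CPM in the controls, and for most of these genes the 5 fall within the range of the other 60S knockdowns.

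The calls of RNA-seq and Ribo-seq overlapped in part. Of 11838 genes tested in both assays, 171 rose in RNA-seq and 155 in Ribo-seq, and 99 rose in both (57.9% and 63.9% of the 2 sets). Of 26 that fell in RNA-seq and 14 in Ribo-seq, 4 fell in both (15.4% and 28.6%). The largest rise in footprints was that of OSBPL5, an ER lipid-transfer protein, at 9.84, 8.00, 4.46, 11.8 and 11.9 CPM against 1.75, 1.39, 0.0439, 0.774 and 1.56 CPM (3.05 ± 0.52, edgeR adjusted p = 0.00576). PCNX3, a pecanex family membrane protein, stood at 34.4, 28.9, 27.1, 27.9 and 27.2 CPM against 8.83, 6.78, 6.85, 4.74 and 3.89 CPM and rose by 2.24 ± 0.21 (adjusted p = 4.21e-05). The groups overlapped for neither. RPL26L1, a ribosomal protein paralog, rose in mRNA (23.4 to 28.8 against 12.4 to 16.97 CPM, 0.84 ± 0.11, edgeR adjusted p = 0.00109) and in footprints (0.92 ± 0.17, edgeR adjusted p = 0.0100). It was the 1 of 7 paralogs that passed in RNA-seq, where 1.43% of all genes tested rose. CCN1 and CCN2, matricellular proteins known as YAP targets, and the syndecan SDC1 rose in footprints by 0.84 ± 0.13, 0.52 ± 0.12 and 0.68 ± 0.14, the 3 of 30 matrix and adhesion genes that passed (1.3% of all genes tested rose). The median of that list was 0.01 with 15 genes on each side of 0, and in RNA-seq 0 of 30 passed in edgeR. CCN2 lost its call in 11 of 14 alternatives (adjusted p up to 0.846), SDC1 in 5 (up to 0.244) and CCN1 in 1.

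Footprints fell most on SERTAD2 (-1.37 ± 0.30, adjusted p = 0.0317 in edgeR) and KBTBD7, a cullin-3 adaptor. KBTBD7 footprints stood at 3.18, 4.66, 4.28, 4.98 and 8.88 CPM against 15.0003, 11.9, 11.7, 11.5 and 11.6 CPM, without overlap (-1.23 ± 0.26, adjusted p = 0.0247). KIF3A, a kinesin-2 motor subunit, stood at 17.7, 28.9, 34.96, 30.2 and 34.7 CPM against 57.6, 71.3, 61.3, 72.3 and 65.5 CPM, also without overlap (-1.15 ± 0.17, adjusted p = 0.00156). JAM3, a junctional adhesion molecule, and TRIM47, a ubiquitin ligase, fell by 0.94 ± 0.21 and 0.87 ± 0.20. Of these footprint calls SERTAD2, KBTBD7, JAM3 and TRIM47 were lost in 6, 6, 10 and 7 of 14 alternatives, and KIF3A in 0.

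The remaining lists gave few calls. Over all genes tested 1.43% rose in RNA-seq and 1.3% in Ribo-seq, so a lone call in a list is not read as a result about that list. Of the 24 HOX mRNAs tested, 1 rose, HOXC10 (2.02 to 3.38 against 1.02 to 1.52 CPM, 1.01 ± 0.20, edgeR adjusted p = 0.0162), and in Ribo-seq 0 of 18 passed. In the RPL38 knockdown the median log2 ratio of HOX footprints to control was 0.44 (controls -0.18 to 0.27), and 0.21, 0.17, 0.08 and 0.27 in RPL22, RPL28, RPL39 and RPL41. Of the 35 other 60S knockdowns 3 had a higher median than RPL38. The median log2 footprint-to-mRNA ratio of 17 HOX genes was 0.11 in RPL38, within the controls (-0.17 to 0.43). In that ratio 10 of the 35 had a higher median than RPL38. SBDS, a factor of late 60S maturation, was the 1 of 50 60S biogenesis genes that rose in RNA-seq (0.49 ± 0.10, adjusted p = 0.0266). EIF3F, an initiation factor subunit with a TOP mRNA, was the 1 of 94 ribosomal protein and other TOP mRNAs (0.48 ± 0.11, adjusted p = 0.0337). In Ribo-seq 1 of 34 integrated stress response genes rose, TRIB3 (0.89 ± 0.16, adjusted p = 0.0106), 1 of 44 40S biogenesis genes, DHX37 (0.92 ± 0.14, adjusted p = 0.00188), and 1 of 27 ribosome rescue genes, ASCC2 (0.51 ± 0.12, adjusted p = 0.0455). Calls were lost in 3 of 14 alternatives for HOXC10, 5 for SBDS, 7 for EIF3F, 1 for TRIB3, 11 for ASCC2 and 0 for DHX37. Of the 25 sterol synthesis and 30 ER chaperone genes 0 passed in either assay, with RNA-seq medians of -0.21 and -0.02.

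The ratio of footprints to mRNA within each lysate was tested with limma on log2 CPM. Of 11838 genes 0 were called in either direction (0%), all 5 knockdowns lay above all 5 controls for 0.667% and below them for 0.228%, and 494 (4.17%) had an unadjusted p under 0.05, with 0.698 as the smallest adjusted p (DDHD1). An interaction test in edgeR also called 0, with 256 genes at an unadjusted p under 0.05. A limma fit over all 64 libraries, which shares their spread, called 15 genes, all higher. Among these were ZSCAN29 (2.78 ± 0.45, limma adjusted p = 0.000755), PCNX3 (1.04 ± 0.20, adjusted p = 0.00808), OSBPL5 (2.32 ± 0.47, adjusted p = 0.0120) and DHX37 (0.55 ± 0.11, adjusted p = 0.0116).

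Ribosomal protein and other TOP mRNAs, of which RPS6, EEF1A1, EEF2 and TPT1 have their tracts printed above, differed in this ratio from one knockdown to the next. Over 90 ribosomal protein and other TOP genes the median log2 ratio of footprints to mRNA, relative to control, was 0.02 in RPL22, -0.10 in RPL28, -0.70 in RPL38, -0.36 in RPL39 and -0.05 in RPL41. The controls lay between -0.12 and 0.11. RPL38 and RPL39 were thus below every control, and the other 3 within their range. The 35 other 60S knockdowns had a middle value of -0.55 (-0.95 to 0.14), and the 19 40S knockdowns one of 0.34. Of the 35, 30 were above RPL38 and 7 above RPL39, while 1 was above each of RPL22, RPL28 and RPL41. The targeted genes themselves were not in these lists.

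The low ratio in RPL38 and RPL39 was shared by the subsets, in each of which both lay below all controls. For the other TOP mRNAs RPL28 also lay below them (lowest control -0.105). Large-subunit proteins had medians of 0.04, -0.01, -0.70, -0.36 and -0.02 (41 genes), small-subunit proteins 0.04, -0.07, -0.71, -0.42 and -0.08 (30 genes), and the other TOP mRNAs -0.04, -0.17, -0.67, -0.33 and -0.04 (19 genes). Named here after their values were seen, EEF2, the translocase, had 2049 CPM of mRNA in RPL38 and 1750.2 in RPL39 against 1109 to 1451 CPM in the controls, but 1311 and 1558 CPM of footprints against 1525 to 2187 CPM. RPS6 had 1907 and 1756 CPM of mRNA against 1601 to 1770.2 CPM, and 1028 and 1106 CPM of footprints against 1416 to 1814 CPM. For EEF2 in RPL38, and for RPS6 in both, footprints lay below all controls. EEF1A1, the factor that delivers aminoacyl-tRNA, had 6154 and 5511 CPM of mRNA against 4002 to 4611 CPM, but its footprints of 157 and 189 CPM lay within the controls (121 to 212 CPM). TPT1, the translationally controlled tumour protein, had 1348 and 1254 CPM of mRNA against 1099 to 1210.2 CPM, and 593 and 546 CPM of footprints, at or under the lowest control (593.3 CPM). RPL3, a core 60S protein, had footprints of 243 and 283 CPM there against 538 to 682 CPM, and 547, 524 and 625 CPM in RPL22, RPL28 and RPL41. Over the group 0 of the 90 passed in limma, with a median of -0.23 against 0.01 over all genes.

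**Figure D5:**
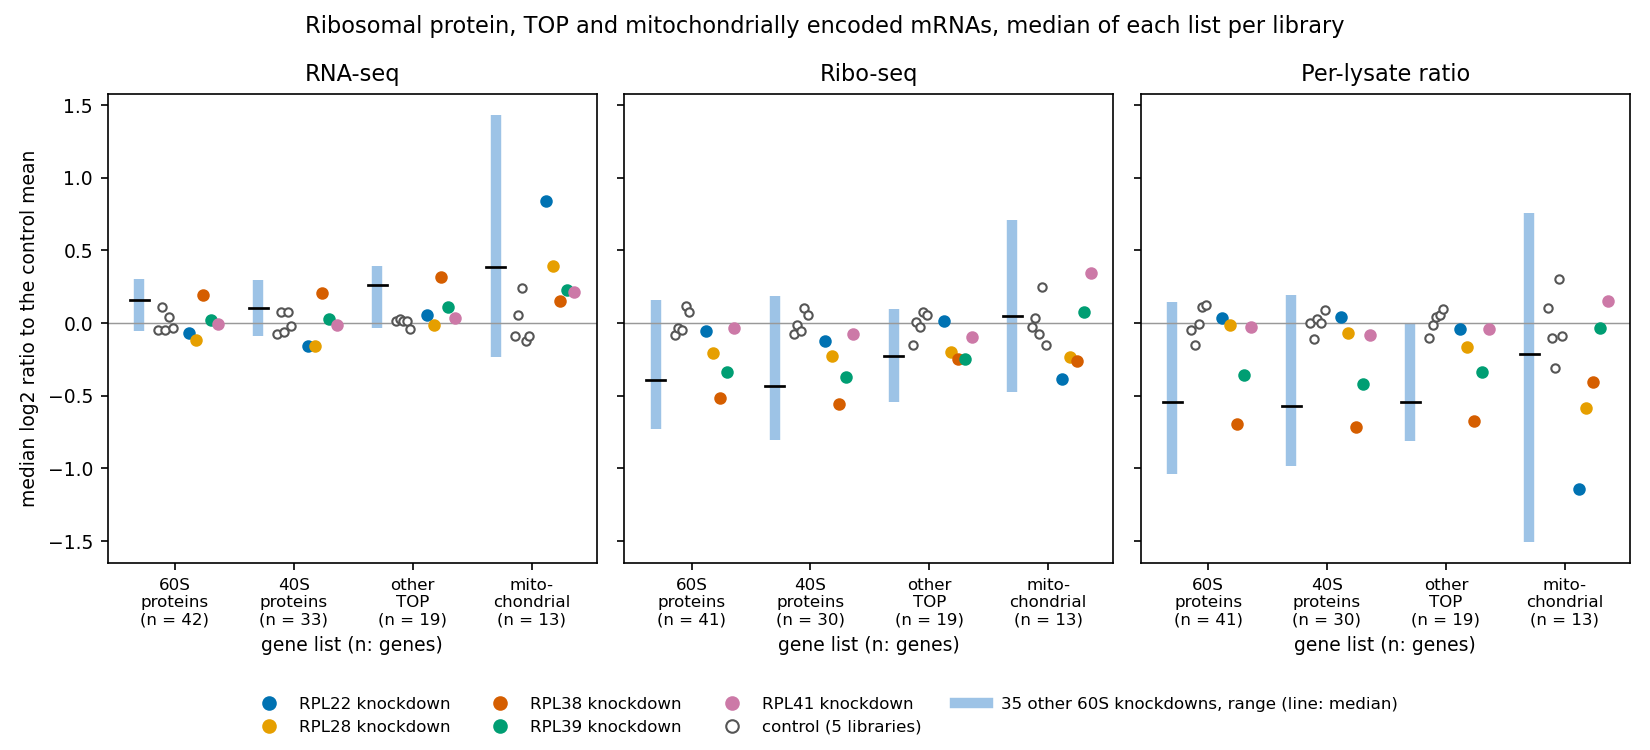
Median log2 ratio to the control mean of large-subunit protein, small-subunit protein, other TOP and mitochondrially encoded genes in each of the 10 libraries, for RNA-seq, Ribo-seq and their ratio; bars give the range and median of the 35 other 60S knockdowns. In the ratio panel RPL38 and RPL39 lie below the controls for the first 3 lists (-0.70 and -0.36 for large-subunit proteins). RPL28 also does so for the other TOP genes, and RPL22 is lowest for mitochondrially encoded genes (-1.14).

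Mitochondrially encoded genes set other libraries apart. Over the 13 protein-coding genes the median log2 ratio of mRNA to control was 0.84 in RPL22, 0.39 in RPL28, 0.15 in RPL38, 0.23 in RPL39 and 0.22 in RPL41, with controls from -0.12 to 0.24. Footprint medians were -0.38, -0.23, -0.26, 0.08 and 0.35. Medians of the per-lysate ratio were -1.14, -0.59, -0.40, -0.03 and 0.15, so RPL22, RPL28 and RPL38 were below all controls (-0.31 to 0.30). MT-CO1, the catalytic subunit of complex IV, stood at 18778, 16945, 17143, 14732 and 14483 CPM of mRNA against 12792 to 15004 CPM, and at 487, 515, 645, 737 and 828 CPM of footprints against 581 to 817 CPM. RPL22, RPL28 and RPL38 were above all controls in mRNA, and RPL22 and RPL28 below them in footprints. All mitochondrial genes made 5.22% of RNA-seq counts in RPL22 against 3.21% to 3.96% in the controls. As a group 0 of 13 passed in edgeR or limma. Of the 35 other 60S knockdowns, 7 had a higher mRNA median than RPL22. Their medians of the per-lysate ratio ran from -1.50 to 0.76, a range that holds all 5. Of the 35, 29, 25 and 21 had a higher ratio median than RPL22, RPL28 and RPL38.

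The test of the 5 against the 35 other 60S knockdowns, with the controls in the fit, called 29 genes higher (0.187% of 15486) and 15 lower (0.0969%) in RNA-seq in edgeR. In Ribo-seq it called 2 higher (0.0156% of 12818) and 6 lower (0.0468%), or 0.0624% in either direction, and in the limma test of the ratio 0 higher and 1 lower (0.00803% of 12451). RPL22L1 was higher in both assays, by 1.50 ± 0.28 (edgeR adjusted p = 0.00844) and 2.08 ± 0.34 (adjusted p = 0.00199), with the other 60S knockdowns below control and the RPL22 knockdown far above. Without the RPL22 knockdown its differences were 0.80 and 1.20 (adjusted p = 0.282 and 0.461), and no gene was called in either assay. E2F1 footprints were higher, at 14.3, 12.1, 3.76, 7.46 and 7.63 CPM against a median of 1.63 CPM (2.11 ± 0.46, adjusted p = 0.0492). That call was lost in 6 of 10 alternatives (adjusted p up to 0.461), among them the edgeR fit without the RPL23 lysate (adjusted p = 0.0678).

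EHD2, a caveolar ATPase, was lower in mRNA (-0.86 ± 0.16, edgeR adjusted p = 0.00844) and footprints (-0.79 ± 0.17, adjusted p = 0.0387). Its mRNA stood at 76.99, 123, 49.7, 127 and 61.2 CPM against a median of 159 CPM (89.2 to 245) in the 35 and 113 to 148 CPM in the controls. TOB2, an antiproliferative BTG/TOB family member, was lower by 0.74 ± 0.15 and 1.24 ± 0.26 (adjusted p = 0.0338 and 0.0387), at 23.7 to 57.4 CPM of mRNA against a median of 68.1 CPM and 33.8 to 58.5 CPM in the controls. For TOB2 the 5 were thus near the controls and the 35 above them, whereas EHD2 in RPL22, RPL38 and RPL41 was below every control. AFG3L1P, a pseudogene transcript of a mitochondrial protease, stood at 35.1, 34.3, 17.9, 29.9 and 34.2 CPM against 32.2 to 40.9 CPM in the controls and a median of 18.4 CPM in the 35 (0.73 ± 0.13, adjusted p = 0.00844). GATA3, a transcription factor, was lower (-1.0007 ± 0.22, adjusted p = 0.0338), at 2.31 to 3.56 CPM against a median of 5.46 CPM and 1.61 to 3.39 CPM in the controls. Of 10 alternatives, 2 each lost the mRNA calls of EHD2, TOB2 and AFG3L1P, and 3 lost that of GATA3. The footprint calls of EHD2 and TOB2 were lost in 4 and 5 of 10. In the footprint-to-mRNA ratio the gene called was KBTBD7 (-0.88 ± 0.14, limma adjusted p = 0.000917), a call lost in 2 of 11 alternatives. Its mRNA stood at 4.61 to 9.16 CPM against a median of 7.33 CPM in the 35, and its log2 ratios to control were -1.45, -0.79, -0.55, -1.09 and -0.49. Of the 211 genes that rose against control 1 was also called against the other 60S knockdowns, and of the 156 in Ribo-seq 0.

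RPL38 weighed on that comparison. With all 5 in the fit, 0 of 34 p53 targets passed in RNA-seq, although all 34 had a negative difference (median -0.59), and 0 of 48 replication genes passed (median 0.69). Without RPL38 the counts became 407 higher (2.63% of 15470) and 252 lower (1.63%) in RNA-seq, and 62 (0.484% of 12801) and 55 (0.43%) in Ribo-seq. For the ratio limma then called 4 higher (0.0322% of 12441) and 6 lower (0.0482%). Leaving out another of the 5 gave 0 higher and 0 lower calls without RPL22, 4 and 1 without RPL28, 19 and 16 without RPL39, and 5 and 4 without RPL41 in RNA-seq. As RPL38 also had the highest p53 and lowest replication medians of the 5, no list is read from the comparison without it.

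Each knockdown also had transcripts at levels unlike those of the other 9 libraries, here taken from the 3 with the widest gap in each direction per assay. These rest on 1 library and 1 siRNA each, carry no test, and direct action of the siRNA on other transcripts was not tested. In RPL22 HDGFL3 footprints stood at 4.67 CPM (24.1 to 38.8 in the other 9), those of BMI1, a Polycomb ring finger protein, at 8.41 CPM (31.2 to 56.3), and those of FUBP3, an RNA-binding protein, at 24.5 CPM (88.3 to 119.5). NR4A1, an orphan nuclear receptor, had 98.6 CPM of footprints (34.7 to 64.4). ENSG00000261067 was as low as SPNS1 in mRNA (15.8 against 55.2 to 74.6 CPM). That the RPL22 knockdown was the lone high or low library of the 10 for these genes follows from how they were chosen.

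In RPL28 the enzyme NCEH1, a cholesteryl ester hydrolase, stood at 18.9 CPM of mRNA (84.8 to 111 in the other 9) and 15.97 CPM of footprints (117 to 180.4). PIP4K2A, a phosphoinositide kinase, stood at 20.6 CPM (78.4 to 95.3) and INPP5A, a phosphatase of inositol phosphates, at 6.07 CPM (25.5 to 43.9). MTMR6 and GALNT7 footprints stood at 6.69 CPM (44.9 to 74.1) and 21.5 CPM (102 to 144). Upward gaps were smaller: GLE1, an mRNA export factor, had 101 CPM of footprints (24.2 to 67.2) and UBXN11 18.5 CPM of mRNA (9.48 to 12.7). NCEH1 was among the lowest 3 in both assays.

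In RPL38 the genes that stood above the rest included p53 targets. TP53INP1, a p53-induced nuclear protein, stood at 114 CPM of mRNA (11.3 to 35.3 in the other 9) and 59.6 CPM of footprints (4.71 to 9.44). PURPL, a long non-coding RNA induced by p53, stood at 52.8 CPM (4.52 to 20.8). ANGPTL4, a secreted lipoprotein lipase inhibitor, stood at 59.3 CPM (5.55 to 17.2) and 118 CPM of footprints (17.9 to 38.01). Below the rest were EFCAB14 (25.4 CPM, 97.9 to 159), AP3S2, an adaptor subunit (21.4 CPM, 82.9 to 133), and CBX2, a Polycomb protein (8.79 CPM, 31.6 to 55.8). Footprints of FOXM1, a mitotic transcription factor, stood at 5.35 CPM (29.1 to 51.3), and those of KIF18B, a mitotic kinesin, at 7.40 CPM (36.2 to 79.6).

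In RPL39 AFAP1L1, an actin filament associated protein, stood at 3.98 CPM of mRNA (12.8 to 17.4 in the other 9). YAP1, the Hippo pathway coactivator, stood at 148 CPM (63.4 to 107) and SESN2, a sestrin, at 32.6 CPM (13.2 to 24.9). Footprints of CERK, the ceramide kinase, stood at 0.596 CPM (12.2 to 19.99), and those of EIF5B, the subunit-joining factor, at 45.4 CPM (179 to 261). The footprint-to-mRNA log2 ratio of CERK relative to control was -2.11 there and -0.04 to 0.22 in the other 4.

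In RPL41 some of the low genes, EFTUD2 and PDCD6, were among the widest downward gaps in both assays. EFTUD2, a GTPase of the U5 snRNP, stood at 55.5 CPM of mRNA (188 to 252 in the other 9) and 108 CPM of footprints (421 to 526). PDCD6, a calcium-binding protein, stood at 23.6 CPM (67.3 to 84.97) and 26.5 CPM of footprints (122 to 202). KLHL5 stood at 39.2 CPM (128 to 191), and footprints of AHRR, the aryl hydrocarbon receptor repressor, at 2.46 CPM (12.3 to 23.8). ZDHHC18, a palmitoyltransferase, stood above the rest at 74.7 CPM (28.8 to 57.5).

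Over genes with a mean of at least 10 CPM, at least 2-fold higher or lower in RNA-seq were 42 (0.416%) and 71 (0.702%) of 10107 in RPL22, 34 (0.336%) and 155 (1.53%) in RPL28, and 149 (1.47%) and 322 (3.19%) in RPL38. In RPL39 they were 50 (0.495%) and 61 (0.604%), and in RPL41 37 (0.366%) and 54 (0.534%). In Ribo-seq the counts out of 8737 were 82 (0.939%) and 133 (1.52%) in RPL22, 70 (0.801%) and 229 (2.62%) in RPL28, 181 (2.07%) and 452 (5.17%) in RPL38, 109 (1.25%) and 190 (2.17%) in RPL39, and 70 (0.801%) and 82 (0.939%) in RPL41. RPL38 had the most in each direction of both assays. In the footprint-to-mRNA ratio, out of 8358, they were 38 and 37, 0 and 8, 6 and 46, 13 and 56, and 5 and 4. There control NC3 alone had 244 higher and 44 lower than the other 4 controls, more in total than any of the 5 knockdowns had against the control mean. Against the other 4 controls each control other than NC3 had at most 4 genes higher and 1 lower in RNA-seq.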

How the data were processed

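RNA-seq and Ribo-seq were run on parts of the same lysates, 102 in all. The authors deposited raw counts for each gene. Per the file headers, RNA-seq reads were counted on exons and footprints on coding sequences. The submitters' processing notes name GRCh38, bcl2fastq 2.20.0.422, cutadapt 1.8.1 and STAR 2.6.1. Not given in the sources used here are the counting program, how it treated strand and multi-mapping reads, and which annotation release was used. Groups follow the sample titles, and 38 columns of each table were not used. Of 41379 RNA-seq gene identifiers 40811 had a symbol, and of 19217 Ribo-seq identifiers 19119.

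Counts were tested with edgeR 4.0.16 (quasi-likelihood test, TMM scaling, at least 1 CPM in 5 libraries, Benjamini-Hochberg threshold 0.05) in R 4.3.3. The per-lysate ratio was tested with limma 3.58.1 on log2 CPM (prior count 2). Footprints and mRNA are paired by protocol, since each pair comes from 1 lysate. Their deviations from the group means correlated with a median r of 0.478 over 10 lysates (-0.164 to 0.800, 6 over 0.1), across 8358 genes. Single libraries were described as log2(CPM + 0.5) minus the control mean, for genes with a mean of at least 10 CPM, with 2-fold as the mark and no test. Limits from 3 counts cover counting error only. Control pairs differed by more than sampling noise (chi-square per degree of freedom at least 5.21 in RNA-seq and 21.5 in Ribo-seq over 10 pairs), so none was treated as a duplicate. The scripts were tested on simulated data.

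Members and gene lists were chosen with earlier results of these data known. Named genes are the 10 called genes with the largest change each way at a mean of at least 5 CPM (5 each way against the other 60S knockdowns), up to 3 called genes per list, the targets, RPL22L1, RPL39L, CDKN1A, MDM2, MYC, MDM4, SMAD2, and the 3 widest single-library gaps each way. Other named genes were picked after their values were seen. Not every gene meeting this rule is reported here. Alternatives were RLE scaling, no filter, DESeq2 1.42.0, a fit over 64 libraries, leaving out libraries, interaction tests in edgeR and other prior counts.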

Additional observations from a re-analysis of the deposited data

Results flagged for a closer look

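Against the 35 other 60S knockdowns, the 5 differed in 44 genes in RNA-seq and 8 in Ribo-seq (edgeR) and in 1 gene, KBTBD7, in the footprint-to-mRNA ratio (limma). The extent of change was smaller by 0.117 in RNA-seq (difference -0.117) and by 0.125 in Ribo-seq (difference -0.125).

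In 12 of 242 groups of 5 libraries, 1 library lay far from the other 4. Chance gives about 1 in 20, so these are about as many as chance alone would give. Among the knockdowns, RPL38 was highest for KIF3A mRNA (27.99 CPM) and ACTA2 footprints (74.0 CPM) and lowest for the median footprint-to-mRNA ratio of replication genes (-0.13). RPL22 was highest for PCNX3 footprints (34.4 CPM), and RPL39 lowest for TMEM120B footprints (9.54 CPM). Among the controls, NC1 was lowest for CHST14 mRNA (4.00 CPM) and OSBPL5 mRNA (2.75 CPM) and highest for KBTBD7 footprints (15.0003 CPM). NC3 was lowest for MDM2 mRNA (168 CPM) and had the widest spread of log2 ratios in RNA-seq (0.274). NC9 was highest for B4GALT1 footprints (75.6 CPM), and NC7 for the median of p53 target footprints (0.0808).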

How the results depend on the processing

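No direction reversed under any alternative run. Against control, calls in RNA-seq were 376 higher and 138 lower with no filter, 490 and 179 with DESeq2, and 13 lower in a fit over 64 libraries. In Ribo-seq they were 290 and 59 with DESeq2, and 4 lower over 64 libraries. For the ratio, where each lysate is the replicate block, the fit over 64 libraries called 15 higher. With no replicate block, an edgeR interaction test called 0 against control (256 at an unadjusted p under 0.05) and 0 lower against the other 60S knockdowns. Leaving out 1 library gave 106 to 235 higher and 7 to 53 lower in RNA-seq, 83 to 152 and 1 to 19 in Ribo-seq, and 0 to 0 for the ratio.

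Against the 35, calls in RNA-seq were 113 and 138 with DESeq2. In Ribo-seq they were 114 and 25 with no filter and 17 and 47 with DESeq2, and the ratio gave 1 higher with no filter. With other 60S libraries of the same run of columns, chosen after seeing the data, they were 15 and 6 in RNA-seq and 1 and 0 in Ribo-seq. Without the RPL23 lysate, also chosen after seeing the data, they were 34 and 20 in RNA-seq and 1 and 5 in Ribo-seq. Leaving out 1 of the 5 gave 0 to 407 and 0 to 252 in RNA-seq, 0 to 62 and 0 to 55 in Ribo-seq, and 0 to 4 and 0 to 6 for the ratio. The difference in extent ranged from -0.148 to -0.0999 in RNA-seq, -0.153 to -0.107 in Ribo-seq and -0.049 to -0.0173 for the ratio, which was -0.0447 (exact permutation p = 0.0417) at a mean of at least 50 CPM. Of the named calls, 11 of 26 in RNA-seq and 11 of 29 in Ribo-seq against control were kept in every alternative run, and 0 of 10, 0 of 7 and 0 of 1 against the 35. One library per target limits all single-knockdown values.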
